A study of Homo sapiens with 75 samples.

Results

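The enzymes described here build and remodel gangliosides and control sphingosine phosphate. They were chosen by name, as every probe set annotated to a single symbol among ST3GAL5, ST8SIA4, UGCG, SGPP1, SGPP2, SPHK1, SPHK2 and SGPL1. Probe sets with a single symbol were found for 7 of the 8 genes, 18 probe sets in all, of 19775 genes and 41091 probe sets on the array. SPHK2 was not analysed here. All 7 genes passed the filter on low values, and 17 of the 18 probe sets did. ST3GAL5, SGPP1 and ST8SIA4 were picked because their response to the antibodies had already been seen to differ between cell lines, so their antibody responses are given as a description, with no test. UGCG, SGPP2, SPHK1 and SGPL1 were tested.

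Gangliosides are glycosphingolipids that carry sialic acid, and they sit in the outer leaflet of the plasma membrane, where they gather in cholesterol-rich domains. Their synthesis starts when glucosylceramide synthase (UGCG) adds glucose to ceramide, and GM3 synthase (ST3GAL5) later adds the first sialic acid to lactosylceramide, which opens the ganglioside series. ST8SIA4 is a sialyltransferase of another kind: it makes polysialic acid on glycoproteins. Ceramide can instead be cut to sphingosine, which the sphingosine kinases SPHK1 and SPHK2 phosphorylate. SGPP1 and SGPP2 remove that phosphate again, and the lyase SGPL1 breaks sphingosine phosphate down for good. Sphingosine phosphate guides lymphocyte traffic through cell surface receptors and is known as a survival signal, while ceramide is known for the opposite effect.

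Mantle cell lymphoma is a tumour of B cells marked by cyclin D1, and 5 established human lines of it were used: HBL-2, REC-1, JEKO-1, Z138 and GRANTA-519. Each line received GA101 (obinutuzumab, a type II antibody to the B cell surface protein CD20), rituximab (a type I antibody to the same protein) or both, each at 10 µg/ml, an isotype control antibody, or phosphate-buffered saline (PBS). The labels give no exposure time and no dose for the isotype antibody, and each line stands for 1 tumour. Every one of the 25 groups of a line and a treatment had 3 arrays, 75 in all, and values are MAS5 intensities, an arbitrary brightness scale on which no gene's level can be set against another gene's. Whether arrays came from separate cultures is not stated. A p-value here sets a difference between group means against the spread of arrays within groups, and that spread can be technical only. In bulk RNA, fewer cells of a type and less RNA per cell cannot be told apart.

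Precision is limited by 3 arrays a group. Every array had the same mean intensity of 172, so the mean cannot show whether the arrays were alike in brightness. Their medians lay between 11.06 and 17.42, and each had between 4.08% and 8.87% of its probe sets at 0. Replicates of a group correlated at 0.9483 to 0.9683 over the probe sets tested. The 5 B cell markers measured summed to 6539 to 8008 over the HBL-2 arrays and 11243 to 13547 over the REC-1 arrays. CCND1, the cyclin D1 gene, ranged from 4489.8 to 6174 in the other lines and from 652 to 1885 in HBL-2, and CD5 passed the filter only in REC-1. T cell, myeloid and epithelial or fibroblast markers summed to 14.8 to 164 in HBL-2 and REC-1, and of the 4 myeloid genes CD14 was at a median of 0 in 4 of the 5 lines. The other myeloid genes were not at 0: LYZ read 73.6 to 104 in HBL-2, ITGAM had line medians of 14.6 to 20.6, and CSF1R of 13.6 to 24.4. Plasma cell markers summed to 719 to 857 in the antibody-treated HBL-2 arrays, 858 to 878 under the isotype control and 953 to 1001 in PBS. Their part in the HBL-2 results below was not tested. MS4A1, which encodes CD20 itself, rose in HBL-2 by 0.18 ± 0.053 with GA101 (log2 change ± SE, limma adjusted p = 0.036), by 0.32 ± 0.053 (limma adjusted p = 8.1e-06) with rituximab and by 0.36 ± 0.053 (limma adjusted p = 1.4e-06) with the combination, and was not called against isotype control in the other lines. Against PBS in HBL-2 the GA101 change of MS4A1 was not called (0.14, limma adjusted p = 0.19). Rituximab (0.28, limma adjusted p = 0.00014) and the combination (0.31, limma adjusted p = 2.5e-05) were.

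The untreated level of all 7 genes differed between the lines. Over the PBS arrays, limma's moderated F test called 7 of 7 genes, against a background of 77.9% of all probe sets, so most genes on the array differed between the lines, and 49.3% of all pairs of lines were called over all probe sets. UGCG was highest in HBL-2 (1395, 1281 and 1282) and lowest in Z138 (363, 394 and 373), a 3.5-fold range, and every neighbour in the order HBL-2, GRANTA-519, JEKO-1, REC-1, Z138 differed (largest limma adjusted p = 0.021). ST3GAL5 was highest in JEKO-1 (302, 281 and 302) and lowest in HBL-2 (149, 134 and 144), a 2.07-fold range, with GRANTA-519, REC-1 and Z138 between them. REC-1 and Z138 differed by 0.06 ± 0.068 (limma adjusted p = 0.47), within the spread. Thus HBL-2 had the highest untreated level of the glucosylceramide synthase gene and the lowest of the GM3 synthase gene. ST8SIA4 ran from 758, 793 and 698 in Z138 to 209.8, 195 and 217 in JEKO-1, a 3.62-fold range, and REC-1 and HBL-2 did not differ beyond their spread (0.10 ± 0.07, limma adjusted p = 0.27).

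The sphingosine phosphate genes had their own orders. SGPP1 was highest in GRANTA-519 (1920, 1674 and 1769) and lowest in Z138 (349, 336 and 394), a 4.97-fold range. HBL-2 and REC-1 lay side by side in its order, 0.18 ± 0.078 apart, just past the threshold (limma adjusted p = 0.0499). SGPP2 ran from 493, 449 and 433 in GRANTA-519 through 109.9, 104 and 109.6 in REC-1 to intensities between 0.95 and 23.9 in the other lines. The PBS means of Z138 and JEKO-1 lie below the filter's intensity of 11.7, so ratios against these lines are not given. SPHK1 was low throughout and highest in HBL-2 (80.3, 69.7 and 62.5). In GRANTA-519 its PBS arrays read 1.01, 0.99 and 1.01, the floor of the scale, and Z138, JEKO-1 and REC-1 did not differ between neighbours (limma adjusted p = 0.26 and 0.48). SGPL1 varied least, from 239, 245 and 260.1 in REC-1 to 122, 125 and 149.6 in HBL-2, a 1.88-fold range in which REC-1 and GRANTA-519 (limma adjusted p = 0.094), Z138 and JEKO-1 (0.46) and JEKO-1 and HBL-2 (0.2) were not told apart.

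Promoter sequences of UGCG, ST3GAL5, ST8SIA4 and SGPP2, the genes with a window whose antibody responses are described at most length, are given as the 250 bases before the most upstream start that RefSeq gives on GRCh38.p14. They were searched on both strands for the GC box (GGGCGG), the CCAAT box (CCAAT), the E-box (CACGTG), the cAMP response element (TGACGTCA), the AP-1 site (TGACTCA) and the 10-base NF-kB site of the immunoglobulin kappa enhancer, with no base shared between matches. Capitals mark a match on either strand. A window was found for 7 of the 8 genes, none for SGPP1. Of all 35116 RefSeq promoter windows of this length, 42.6% held a GC box, 32% a CCAAT box, 6.34% an E-box, 1.65% a cAMP response element, 4.2% an AP-1 site and 0.179% the NF-kB site.
UGCG (chr9:111896564-111896813, plus strand): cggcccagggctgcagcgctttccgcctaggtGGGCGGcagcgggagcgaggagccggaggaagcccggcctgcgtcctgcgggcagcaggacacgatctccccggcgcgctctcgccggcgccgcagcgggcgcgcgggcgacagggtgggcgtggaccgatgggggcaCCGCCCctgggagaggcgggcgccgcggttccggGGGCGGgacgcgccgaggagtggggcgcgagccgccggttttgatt
ST3GAL5 (chr2:85889035-85889284, minus strand): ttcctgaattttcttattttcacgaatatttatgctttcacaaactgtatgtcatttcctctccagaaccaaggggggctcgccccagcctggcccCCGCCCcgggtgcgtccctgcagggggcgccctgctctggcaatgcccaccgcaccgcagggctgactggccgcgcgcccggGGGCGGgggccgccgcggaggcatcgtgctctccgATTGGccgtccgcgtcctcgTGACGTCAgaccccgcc
ST8SIA4 (chr5:100903283-100903532, minus strand): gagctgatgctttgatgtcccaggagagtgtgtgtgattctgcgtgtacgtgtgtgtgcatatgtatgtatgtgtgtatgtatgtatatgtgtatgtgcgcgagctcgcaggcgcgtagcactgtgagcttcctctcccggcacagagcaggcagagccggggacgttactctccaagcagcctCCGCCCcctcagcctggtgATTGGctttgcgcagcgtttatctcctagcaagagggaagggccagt
SGPP2 (chr2:222423738-222423987, plus strand): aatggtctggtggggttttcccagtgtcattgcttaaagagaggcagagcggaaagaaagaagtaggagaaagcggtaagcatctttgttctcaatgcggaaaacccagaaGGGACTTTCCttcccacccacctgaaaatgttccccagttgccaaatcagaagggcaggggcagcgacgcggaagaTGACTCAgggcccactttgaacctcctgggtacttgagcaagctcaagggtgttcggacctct

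The UGCG window held 3 GC boxes and is 78.4% G and C. The ST3GAL5 window held 2 GC boxes, a CCAAT box and, 17 bases before the start, a cAMP response element. ST8SIA4 had 1 GC box and 1 CCAAT box. SGPP2 had no GC box, but an NF-kB site 139 bases and an AP-1 site 63 bases before the start. These matches are letters only, with no measurement of binding, and ST3GAL5 and SGPP2 have further starts that were not searched.

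UGCG, the first enzyme of the pathway, separated the antibodies most clearly among the genes tested. In HBL-2 its intensity was 1215, 1193 and 1120 with the isotype control, 1167, 1042 and 1160 with GA101, 1867, 1842 and 1780.4 with rituximab, and 1816, 1755 and 1762 with both. Every array that had received rituximab, alone or in the combination, lay above every array that had not. Over all probe sets tested, antibody and isotype arrays of a line did not overlap in 17.1% to 23.6%, so a gap between arrays alone is common. UGCG rose 1.56-fold with rituximab (log2 change 0.64 ± 0.051, limma adjusted p = 6.1e-15) and 1.51-fold with the combination (0.60 ± 0.051, limma adjusted p = 8.8e-14), while GA101 alone gave -0.07 ± 0.051 (limma adjusted p = 0.66). The direct contrast of GA101 and rituximab was -0.71 ± 0.051 (limma adjusted p = 2.9e-15), and the combination lay 0.66 above GA101 (limma adjusted p = 3.9e-14) but within the spread of rituximab (-0.04 ± 0.051). Against PBS, rituximab still gave a rise of 0.47 and the combination of 0.43, whereas GA101 lay below PBS by -0.23 ± 0.051 (limma adjusted p = 0.0029). The isotype control of HBL-2 was itself on that side of PBS, at -0.17 and not called.

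In the other lines the changes of UGCG were small and went in both directions. In Z138 the intensity was 383, 361 and 334 with the isotype control, 433, 394 and 415 with GA101 and 345, 341 and 347 with rituximab. GA101 raised it by 0.21 ± 0.051 there (limma adjusted p = 0.005), GA101 exceeded rituximab by 0.26 ± 0.051 (limma adjusted p = 0.0011), and the combination lay 0.34 below GA101 (log2 difference -0.34, limma adjusted p = 8.9e-06). When Z138 was fitted alone, an alternative added after the values were seen, the contrast of GA101 and rituximab was no longer called (0.26, limma adjusted p = 0.11). The estimates of that contrast had opposite signs in HBL-2 and Z138, with a moderated F test between the 5 lines at an adjusted p of 1.7e-14. In JEKO-1 UGCG rose by 0.19, 0.17 and 0.22 with GA101, rituximab and both (limma adjusted p = 0.011, 0.036 and 0.003), in GRANTA-519 it fell by 0.18 with rituximab (limma adjusted p = 0.032), and in REC-1 it stayed between -0.05 and -0.03 with no call.

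The size of the UGCG response differed between the lines for GA101 (moderated F test, limma adjusted p = 0.00036), rituximab (5.1e-13) and the combination (2.9e-12), and likewise against PBS (4.3e-05, 1.5e-10 and 5.7e-10). The HBL-2 calls held without any single array (highest limma adjusted p = 3.8e-11 for rituximab or the combination against isotype control). The small calls did not: GA101 in Z138 was lost without GA101 replicate 1 or isotype replicate 3, and against PBS (limma adjusted p = 0.17). With PBS as the control all 3 JEKO-1 calls were lost (limma adjusted p = 0.14, 0.3 and 0.057), and with quantile normalization so were GA101 in Z138 and JEKO-1 and rituximab in JEKO-1 (0.088, 0.13 and 0.083). GA101 in JEKO-1 was lost without GA101 replicate 1 or isotype replicate 1 or 3, rituximab in JEKO-1 without rituximab replicate 2 or 3 or isotype replicate 1 or 3, and rituximab in GRANTA-519 without rituximab replicate 2 or 3 or isotype replicate 1 or 3. These results come from the brightest of 3 UGCG probe sets. The other probe sets, both dimmer, gave 0.71 ± 0.41 and 0.51 ± 0.39 for rituximab in HBL-2 and were not called. Averaging all 3 kept the size (0.62) and ended the call (limma adjusted p = 0.14). On the 2 dimmer probe sets no F test of a UGCG response between lines was called (moderated F test, smallest limma adjusted p = 0.77). On the brighter of these others, replicate 3 was the highest array in every HBL-2 group, and the SE includes that offset. In replicate order it read 413, 426 and 734 with rituximab and 296, 238 and 417 with the isotype control.

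**Figure D1:**
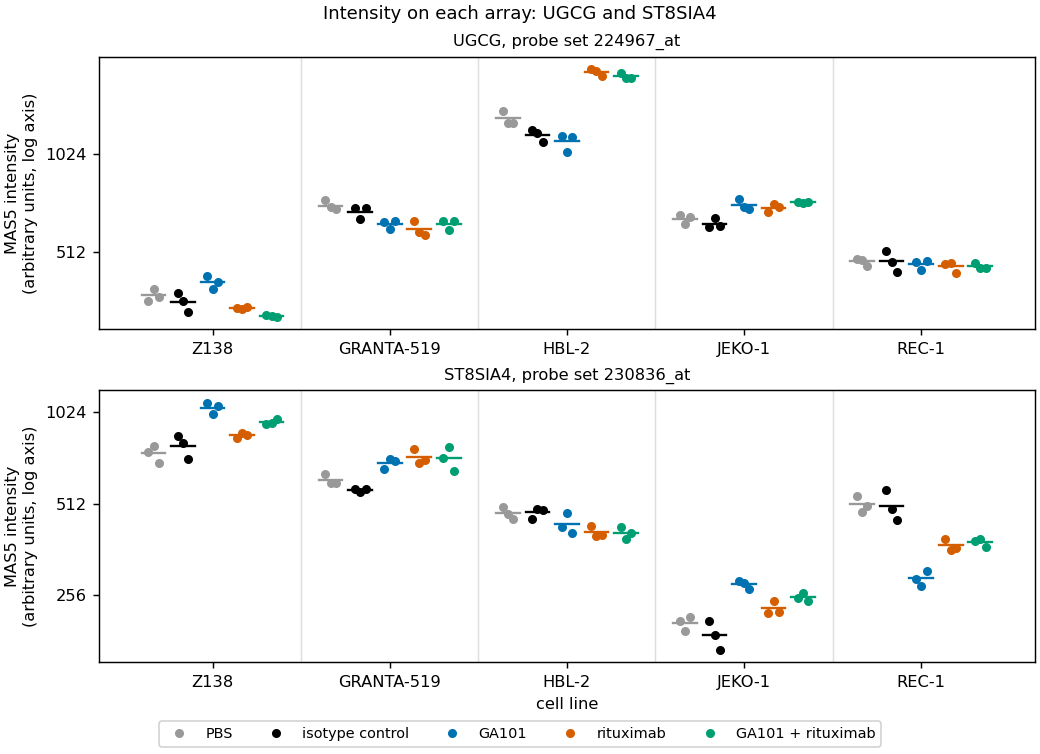
MAS5 intensity (arbitrary units, log axis) of UGCG and ST8SIA4 on each array, by cell line and treatment, where points are arrays and bars are the mean of 3. UGCG in HBL-2 lies between 1755 and 1867 in the arrays with rituximab and between 1042 and 1395 in the others, and ST8SIA4 in REC-1 is lowest with GA101, between 274 and 308.

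ST3GAL5, which makes the ganglioside GM3, had its highest values after rituximab in HBL-2. There its intensity was 147, 152 and 166 with the isotype control, 290.3, 302 and 307 with GA101, 533, 525 and 558 with rituximab, and 494, 533 and 514 with both. The groups formed 3 steps that did not overlap, controls, then GA101, then either treatment with rituximab. The log2 change against isotype control was 0.95 with GA101, 1.80 with rituximab and 1.73 with both (SE 0.068 each), or 1.93-fold, 3.47-fold and 3.31-fold. GA101 lay 0.85 below rituximab (log2 difference -0.85) and the combination was -0.07 from rituximab. The line with the lowest untreated ST3GAL5 thus reached the highest level of any group.

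In REC-1 the groups with rituximab were again highest, at a smaller size. Its ST3GAL5 intensity was 172, 186 and 171 with the isotype control, 187, 188 and 192 with GA101, 249.7, 292 and 279 with rituximab, and 291, 296 and 297 with both, which is 0.10, 0.63 and 0.74 on the log2 scale. The GA101 arrays lay within the PBS range there (178, 194 and 176), a difference of 0.05, so the step from controls to GA101 seen in HBL-2 was not present. JEKO-1 ran the other way for GA101 when read against the isotype control: 387, 421 and 412 with that control, 287, 307 and 273 with GA101, 407, 385 and 374 with rituximab, and 371, 398 and 375 with both. The GA101 difference was -0.49 against isotype control but -0.03 against PBS (302, 281 and 302), because the isotype control itself lay 0.46 above PBS. Read against PBS, rituximab and the combination were 0.40 and 0.37 higher in JEKO-1. Set directly against rituximab, GA101 was at -0.43 in JEKO-1 and -0.53 in REC-1. In Z138 the 3 antibody groups lay 0.02 to 0.15 from the isotype control and 0.25 to 0.38 from PBS, and in GRANTA-519 they lay -0.18 to -0.15 from the isotype control and 0.03 to 0.06 from PBS.

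SGPP1, which turns sphingosine phosphate back into sphingosine, was likewise highest in the groups with rituximab in HBL-2 and REC-1. In JEKO-1 these groups also had the highest means, but their arrays overlapped the isotype control. In Z138 against isotype control SGPP1 was lower with the antibodies, where ST3GAL5 was level or higher. In HBL-2 the intensity was 822, 780.4 and 807 with the isotype control, 1295, 1200.3 and 1472 with GA101, 2248, 1953 and 1996 with rituximab, and 2140.3, 2179 and 2071 with both. Again the 3 levels did not overlap, with log2 changes of 0.72, 1.36 and 1.41 (SE 0.078), or 1.64-fold, 2.57-fold and 2.65-fold. In REC-1 the intensity was 771, 831 and 746 with the isotype control, 971, 818 and 998 with GA101, 1210.1, 1180.3 and 1119.5 with rituximab, and 1144, 1187 and 1151 with both, or changes of 0.24, 0.58 and 0.57. The GA101 arrays of REC-1 overlapped the isotype control, and both groups with rituximab lay above it.

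In Z138 and GRANTA-519 SGPP1 was lower with the antibodies. Z138 read 477, 434 and 452 with the isotype control, 392, 364 and 395 with GA101, 282, 299.8 and 346 with rituximab, and 331, 328 and 363 with both, or -0.24, -0.56 and -0.42, but its isotype control lay 0.34 above PBS, against which the changes were 0.10, -0.22 and -0.08. GRANTA-519 gave -0.23, -0.31 and -0.20 against isotype control, and the same values against PBS. Set directly against rituximab, GA101 was at -0.31 in JEKO-1, -0.34 in REC-1 and -0.65 in HBL-2. The JEKO-1 changes of -0.22, 0.09 and 0.11 against isotype control became 0.13, 0.44 and 0.46 against PBS. So HBL-2, REC-1 and GRANTA-519 kept their direction for SGPP1 under either control, and Z138 with GA101 and JEKO-1 with GA101 did not. The other SGPP1 probe set tracked the lead one over the 25 group means after each line's mean was removed (Pearson r = 0.99). Its small changes were less clear: GRANTA-519 gave -0.06, -0.19 and -0.13 against isotype control, with overlapping arrays. In Z138 the combination stood at 0.01 from PBS on that probe set.

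**Figure D2:**
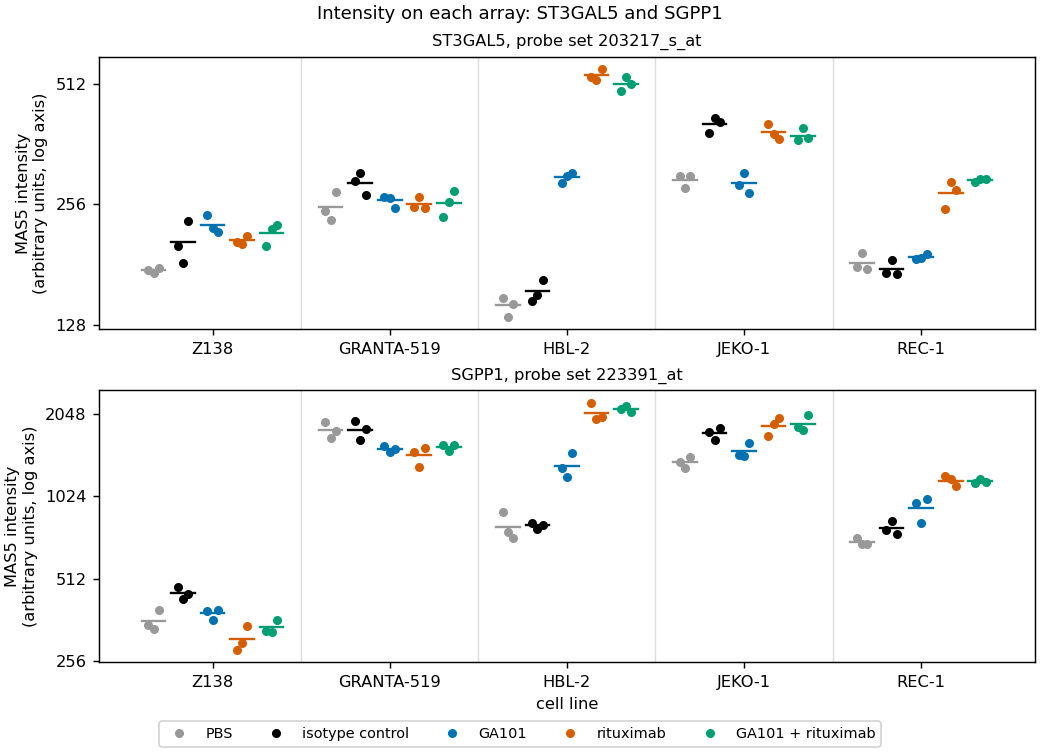
MAS5 intensity (arbitrary units, log axis) of ST3GAL5 and SGPP1 on each array, by cell line and treatment, where points are arrays and bars are the mean of 3. In HBL-2 both genes step up from controls to GA101 to rituximab, for ST3GAL5 from 134 to 166 through 290.3 to 307 to a range of 494 to 558.

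ST3GAL5 and SGPP1 shared their pattern more closely than any other pair of these genes. Over the 25 group means with line means removed, their Pearson r was 0.93, against 0.64 for SGPP1 and UGCG and 0.58 for ST3GAL5 and UGCG. The 25 points share controls within each line and lean on the large HBL-2 changes, so r is a description. By the same measure the genes most like ST3GAL5 among all those tested were NFX1 (0.97), ALDH5A1 (0.95) and TMEM255A (0.94), and those most like SGPP1 were VPS26A (0.97), RRAGC (0.96) and SOX11 (0.95). Those most like ST8SIA4 were TNFSF10 (0.84), MLLT11 (0.83) and TCF12 (0.83).

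ST8SIA4, the polysialyltransferase, had its largest change in REC-1 with GA101. In the groups with rituximab there, its direction was opposite to that of ST3GAL5 and SGPP1. With GA101 in REC-1, ST3GAL5 and SGPP1 moved little from the isotype control (0.10 and 0.24). In REC-1 the ST8SIA4 intensity was 569, 491 and 452 with the isotype control, 289, 274 and 308 with GA101, 391, 361 and 367 with rituximab, and 386, 393 and 369 with both. All antibody arrays lay below both controls and GA101 lowest, with log2 changes of -0.79, -0.43 and -0.39 (SE 0.07), so the level with GA101 was 1.73-fold lower. In JEKO-1 the order was reversed: 209.9, 189.8 and 169 with the isotype control, 286, 280.3 and 268 with GA101, 224, 244 and 226 with rituximab, and 251, 260 and 244 with both, or 0.56, 0.29 and 0.41. Z138 (0.42, 0.12 and 0.26) and GRANTA-519 (0.30, 0.36 and 0.35) were also higher, and HBL-2 was lower or level (-0.13, -0.22 and -0.22).

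GA101 differed from rituximab in ST8SIA4 by -0.36 in REC-1, 0.30 in Z138 and 0.26 in JEKO-1, and the arrays did not overlap in these 3 lines, as was so for 18%, 14.7% and 13.3% of all probe sets there. The isotype control stayed within -0.13 and 0.08 of PBS in all 5 lines, and the direction of each change was the same against PBS. Its size was not always: rituximab in JEKO-1 went from 0.29 to 0.16, and GA101 in GRANTA-519 from 0.30 to 0.19. On the next brightest probe set GA101 and rituximab in GRANTA-519 both stood at 0 from PBS. The other ST8SIA4 probe sets tracked the brightest one with r = 0.93, 0.90, 0.70 and 0.40, falling with their own brightness. The SGPP1 and ST8SIA4 patterns had a Pearson r of -0.41.

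**Figure D3:**
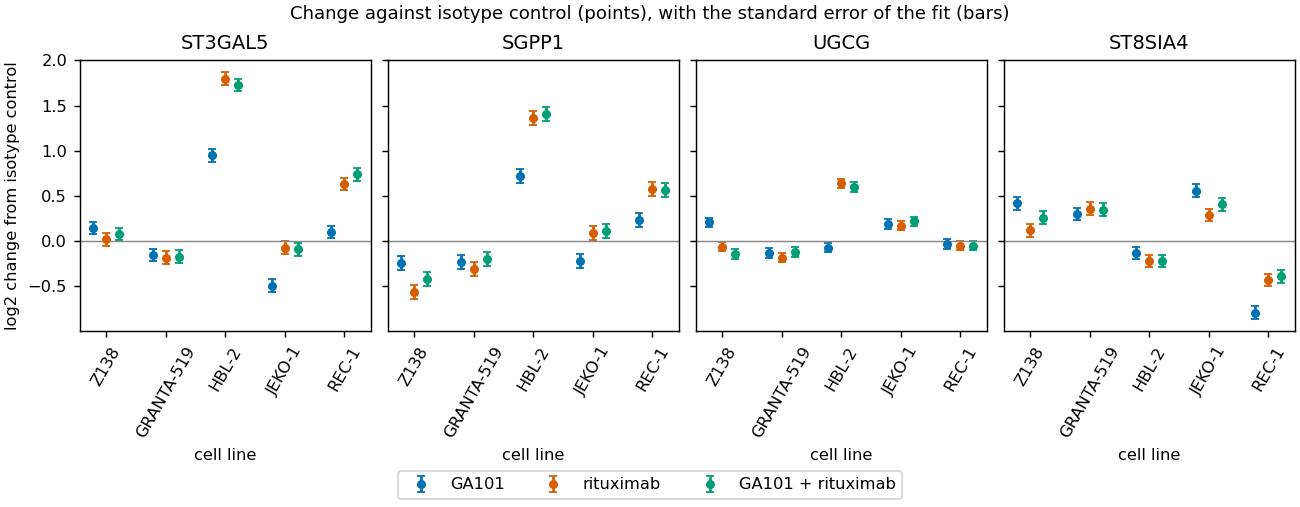
Log2 change from isotype control (y axis) of ST3GAL5, SGPP1, UGCG and ST8SIA4 in each line, for GA101, rituximab and both, where points are estimates and bars the standard error of the fit. ST3GAL5 and SGPP1 are highest in HBL-2 (1.80 and 1.36 with rituximab), UGCG is raised there only in the groups with rituximab, and ST8SIA4 is lowest in REC-1 (-0.79 with GA101).

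SGPP2, the other sphingosine phosphate phosphatase, was well measured in GRANTA-519 and REC-1 only. GRANTA-519 stayed between 386 and 495 under all 5 treatments with no call. In REC-1 its intensity was 109, 104 and 82.2 with the isotype control, 179.5, 174 and 168 with GA101, 69.5, 82.9 and 91.5 with rituximab, and 90.8, 79.6 and 77.5 with both. The GA101 arrays lay above all others of that line, and those of the combination overlapped those of rituximab. The fit over all lines did not call this difference (0.83 ± 0.42 against isotype control, limma adjusted p = 0.27, and 1.11 ± 0.42 against rituximab, limma adjusted p = 0.19). That fit shares 1 spread over all lines, including those where SGPP2 is near the floor. Fitted on REC-1 alone, an alternative added after the values were seen, the limma adjusted p was 0.0013 and 0.00049, and with 16 added to each intensity before taking log2 it was 1.7e-05 and 1e-07. The other SGPP2 probe sets tracked the lead one weakly over all lines (r = 0.35 and 0.16). In REC-1 the brighter of them gave 0.79 ± 0.72 for GA101 against isotype control and 0.96 ± 0.72 against rituximab, neither called. Its GA101 arrays lay above both groups, as was so for 20.7% and 18% of all probe sets in either direction. The dimmer one overlapped the isotype control there (25.5, 24.6 and 13.9 against 16.2, 15.3 and 15.8). In JEKO-1 a fall of 1.39 with rituximab passed the test (limma adjusted p = 0.033) at intensities of 10, 2.06 and 8.38 against 14.4, 14.3 and 15.1, and it was lost without rituximab replicate 2 (-0.67, limma adjusted p = 0.52) or any isotype array, and against PBS (-0.95, limma adjusted p = 0.29).

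SPHK1, the kinase that makes sphingosine phosphate, had no antibody change past the test against the isotype control in any line. In HBL-2, where it was highest, its intensity ran from 43.1 to 80.3 over all 15 arrays. Its call against PBS was in GRANTA-519, 2.15 ± 0.47 with rituximab (limma adjusted p = 0.01), at intensities of 7.16, 4.02 and 3.09 against 1.01, 0.99 and 1.01, all below the filter's 11.7. The isotype control (3.88, 3.91 and 2) lay on the same side of PBS by 1.63 (limma adjusted p = 0.1). Without GRANTA-519 GA101 replicate 2, GA101 lay below isotype control there by -1.59 (limma adjusted p = 0.047) and below rituximab by -2.11 (limma adjusted p = 0.018).

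SGPL1, the lyase, changed in 1 case only. In Z138 its intensity was 168, 140 and 143 with the isotype control, 179, 192 and 188 with GA101, 154, 177 and 167 with rituximab, and 136, 147 and 177 with both. GA101 raised it by 0.31 ± 0.091 (limma adjusted p = 0.023), all arrays above the isotype control, but by 0.26 against PBS (limma adjusted p = 0.13). The call was lost without GA101 replicate 2 or 3 or isotype replicate 2 or 3 (highest limma adjusted p = 0.14), and with Z138 fitted alone (limma adjusted p = 0.13). The second SGPL1 probe set tracked the lead one weakly (r = 0.37). For GA101 against isotype control in Z138 it gave 0.04 ± 0.12 (limma adjusted p = 0.95), with overlapping arrays. The difference in the SGPL1 response to GA101 between lines was not called (limma adjusted p = 0.078).

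**Figure D4:**
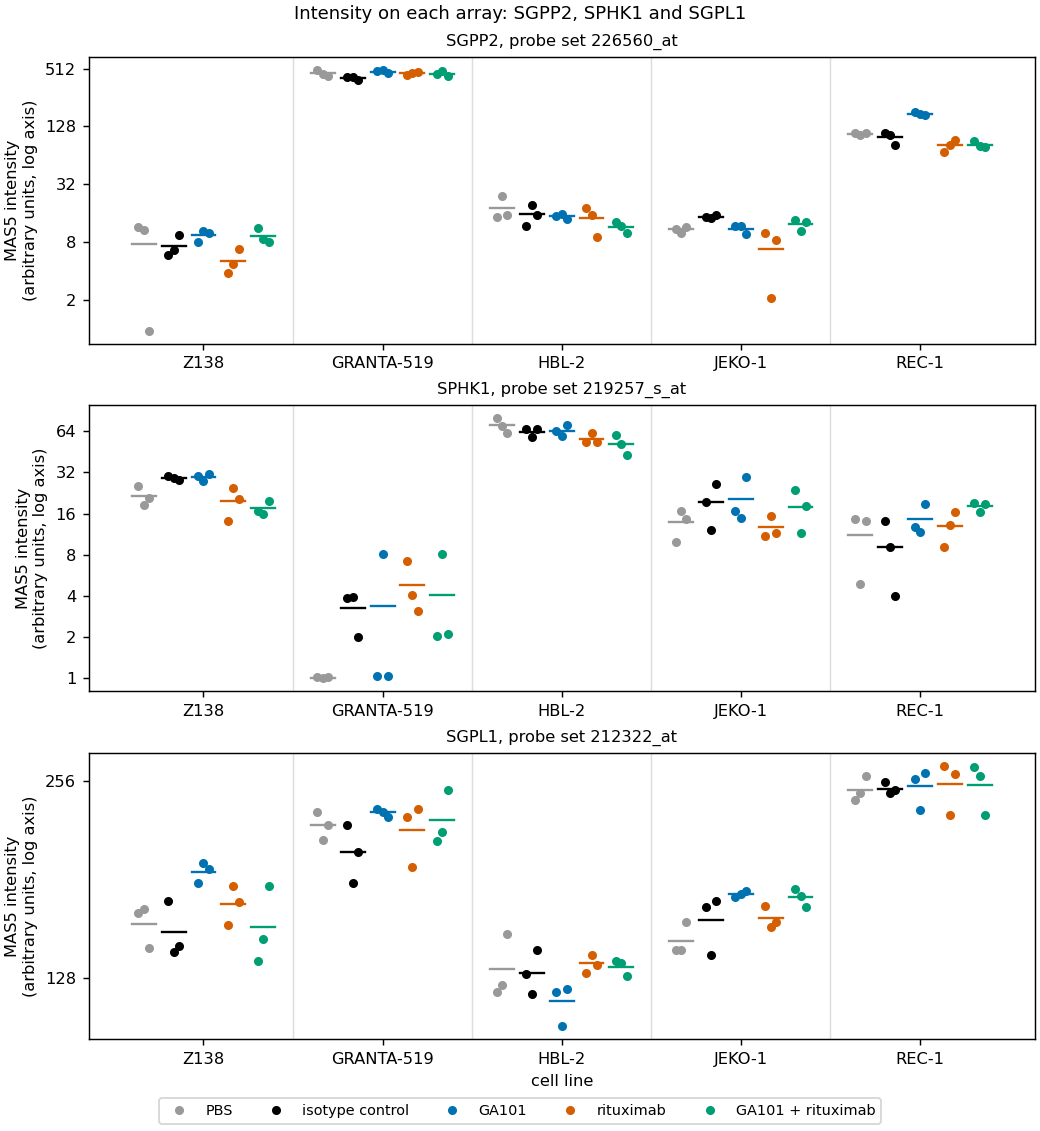
MAS5 intensity (arbitrary units, log axis) of SGPP2, SPHK1 and SGPL1 on each array, by cell line and treatment, where points are arrays and bars are the mean of 3. SGPP2 stands out in GRANTA-519 (386 to 495) and REC-1, SPHK1 is near the floor in GRANTA-519, and SGPL1 varies little with treatment.

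Counted over the 4 genes tested and 5 lines, 20 pairs of a gene and a line, GA101 against isotype control gave 3 calls, all higher (background 5.22% of all pairs of a probe set and a line). Rituximab gave 4, of which 2 were higher and 2 lower (5.41%), and the combination 2, both higher (4.41%). GA101 differed from rituximab in 2 pairs, both UGCG (0.922%), and the combination from GA101 in 2, again both UGCG (0.743%). The combination differed from rituximab in 0 of 20 by limma (0.0467%), and the isotype control from PBS in 0 of 20 (0.931%). In each of these, 2 pairs had an unadjusted limma p under 0.05, a count for which no background share was computed. Against PBS the counts were 1, 3 and 2 (2.9%, 2.8% and 2.23%). Of 12 F tests of a response between lines, 3 passed, all UGCG (background 8.79% for GA101, 7.41% for rituximab and 6.47% for the combination, and 2% for GA101 against rituximab). Against PBS the background was 6.76%, 5.67% and 4.9%.

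Other genes of these pathways were read from 4 lists. For glycosphingolipid synthesis, transport and breakdown, 26 of 35 listed genes were tested, and in HBL-2 with rituximab 6 were higher and 1 lower, against 6.98% of all probe sets called, 4.4% higher and 2.58% lower. With GA101 3 were higher and 2 lower (3.82%), with the combination 3 and 1 (6.13%), and in the contrast of GA101 and rituximab 0 were higher and 5 lower (1.26%). The median change of the list was 0.04 and of all probe sets 0.01. The genes that rose include the lysosomal breakdown machinery of gangliosides: the sialidase NEU1 by 1.22 ± 0.11, the saposin precursor PSAP by 0.97 ± 0.063 and the GM2 activator GM2A by 0.62 ± 0.087 (limma adjusted p = 1.6e-13, 1.8e-18 and 3.5e-07). With GA101 they were 0.37, 0.30 and 0.26, the last not called (limma adjusted p = 0.086), and the GA101 contrast with rituximab was -0.85, -0.67 and -0.36, all called. NEU1 was already 0.58 above PBS in the isotype control of HBL-2 (limma adjusted p = 0.00075).

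In REC-1 1 gene of this list rose and 1 fell with GA101 (8.08% of all probe sets called), and 2 rose and 0 fell with rituximab (3.33%) and with the combination (3.11%). There NEU1 rose by 0.40, 0.47 and 0.47 and GM2A by 0.46 and 0.50 with rituximab and the combination, while PSAP stayed at -0.05, 0.07 and 0.09 with no call. The response to rituximab differed between lines for PSAP (moderated F test, limma adjusted p = 2.5e-13), NEU1 (2.6e-06) and GM2A (0.0028). ST3GAL1, a sialyltransferase of glycoproteins and gangliosides, fell in REC-1 by 1.33 with GA101 (limma adjusted p = 0.00036). Outside these lines GLA, the lysosomal galactosidase of globosides, rose in Z138 by 0.47 with GA101 and 0.43 with rituximab, and in JEKO-1 by 0.33 and 0.46.

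In the ceramide and sphingomyelin list (25 of 31 tested), 2 genes rose and 0 fell in HBL-2 with rituximab, against 6.98% of all probe sets called and 4.4% higher, a share near that background. The list median was 0.05. ASAH1, the acid ceramidase that frees sphingosine in lysosomes, rose by 0.66, 1.62 and 1.49 ± 0.10 with GA101, rituximab and both in HBL-2 (limma adjusted p = 6.6e-06 for GA101 and 2.4e-17 for the combination). It rose by 0.34, 0.77 and 0.75 in REC-1, and in JEKO-1 by 0.50 with rituximab and 0.46 with the combination (limma adjusted p = 0.00054 and 0.0023). The ASAH1 response to rituximab differed between lines (moderated F test, limma adjusted p = 6.1e-15), and GA101 lay below rituximab by -0.43 in REC-1, -0.96 in HBL-2 and -0.48 in JEKO-1. As for ST3GAL5 and SGPP1, rituximab and the combination stood above GA101 for ASAH1 in HBL-2, REC-1 and JEKO-1.

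In the list of sphingosine phosphate transport, receptors and use (14 of 20 tested), 2 genes rose and 0 fell in HBL-2 with rituximab, against 6.98% of all probe sets called and 4.4% higher, and the list median was 0.07. ABCA1, a lipid exporter, rose there by 1.58, 2.40 and 2.22 ± 0.30 with GA101, rituximab and both (limma adjusted p = 0.00037, 2.3e-08 and 2.2e-07), and was not called against isotype control in another line. Its contrast of GA101 and rituximab in HBL-2 was not called (-0.82, limma adjusted p = 0.24). SPNS1, a lysosomal lipid transporter, was the other (0.44). The receptor S1PR1 fell in GRANTA-519 by 1.02 with the combination (limma adjusted p = 0.037). In the sialic acid and polysialic acid list (11 of 13 tested), 3 genes rose and 0 fell in HBL-2 with rituximab, against the same 6.98% and 4.4% over all probe sets, and the list median was 0.21. ST6GAL1, which caps glycoproteins with sialic acid, rose by 0.48, 0.93 and 0.89 ± 0.067 with GA101, rituximab and both. Of the known carriers of polysialic acid, the chemokine receptor CCR7 rose by 0.80 with rituximab in HBL-2 (limma adjusted p = 0.033), while NCAM1, NRP2 and CADM1 were not called there. SLC35A1, which carries activated sialic acid into the Golgi, rose by 0.27.

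**Figure D5:**
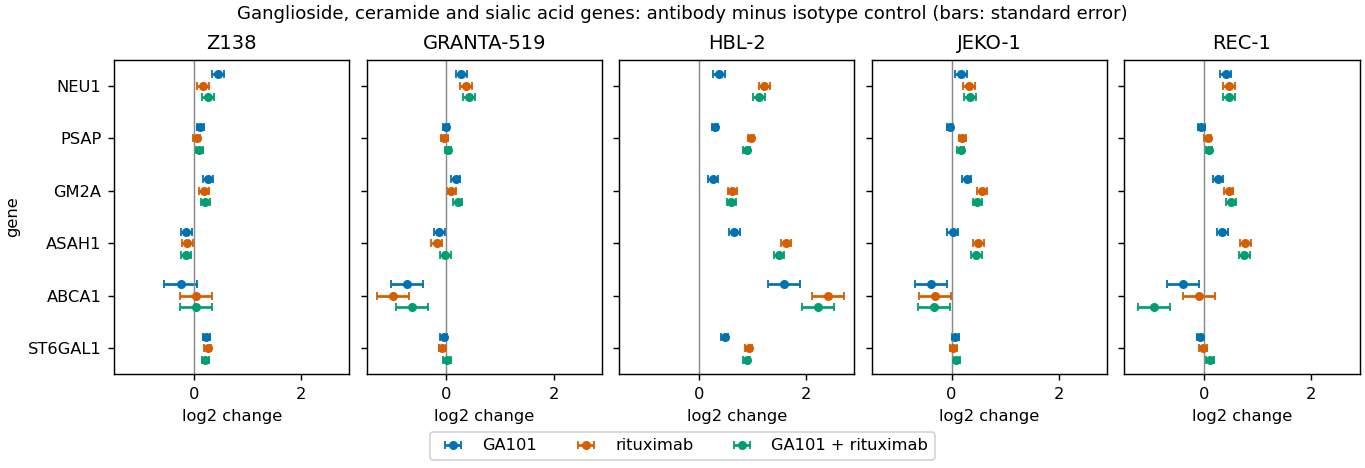
Log2 change from isotype control (x axis) of NEU1, PSAP, GM2A, ASAH1, ABCA1 and ST6GAL1 in each line, for GA101, rituximab and both, where points are estimates and bars the standard error of the fit. In HBL-2 each gene is further right with rituximab than with GA101 (ASAH1 1.62 against 0.66), and ABCA1 and ST6GAL1 stay near or below 0.26 in the other lines.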

How the data were processed

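Total RNA was hybridised to Affymetrix arrays, 3 per line and treatment. Values are MAS5 intensities as the authors deposited them, per the submitters' processing notes, with MAS5's version not given in the sources used here. Every array has the same mean, so a global shift in RNA would not show. Intensities under 1 were set to 1 and log2 was taken. Probe sets were named from the platform annotation (41091 with 1 symbol, 1801 with several and 11777 with none), and those whose mean log2 in at least 1 line exceeded the overall median of 3.55 (intensity 11.7) were tested, 26555 in all. A gene's lead probe set has the highest mean log2.

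A model of 25 group means (limma 3.58.1, R 4.3.3, eBayes with an intensity trend) gave two-sided contrasts, Benjamini-Hochberg adjusted over all probe sets tested within each contrast at 0.05, and limma's F statistic (4 numerator degrees of freedom) compared lines. Members, lists and alternatives were chosen with earlier results of these data known. Named were the members, MS4A1, up to 4 called genes per list and comparison with the largest change, and the 3 genes most correlated with ST3GAL5, SGPP1 and ST8SIA4. Alternatives were PBS as the control, quantile normalization, another offset, no filter, averaged probe sets, no trend, array weights, a replicate block, single arrays left out and each line fitted alone. Promoters are RefSeq's, searched with Python 3.11.15.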

Additional observations from a re-analysis of the deposited data

Results flagged for a closer look

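On its brightest probe set, the UGCG response differed between the 5 lines by moderated F tests of the difference itself. The adjusted p was 0.00036 for GA101, 5.1e-13 for rituximab and 2.9e-12 for the combination against isotype control. Against PBS it was 4.3e-05, 1.5e-10 and 5.7e-10, and for GA101 against rituximab 1.7e-14. None of these F tests was called on the other UGCG probe sets (smallest adjusted p = 0.77). For SPHK1 the rituximab response against PBS differed between lines (adjusted p = 0.0483), at GRANTA-519 intensities near the floor.

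For the genes chosen for their pattern, lines in which every array moved in opposite directions are listed, and the difference between lines was not tested. ST3GAL5 was 0.95 higher in HBL-2 and -0.49 in JEKO-1 with GA101, and 1.80 and -0.18 (GRANTA-519) with rituximab. The JEKO-1 value is -0.03 and the GRANTA-519 value 0.03 against PBS. SGPP1 was 0.72 in HBL-2 and -0.24 in Z138 with GA101, 1.36 and -0.56 with rituximab, and 1.41 and -0.42 with the combination. Against PBS the Z138 values are 0.10, -0.22 and -0.08, so the direction with GA101 turns. ST8SIA4 was 0.56 in JEKO-1 and -0.79 in REC-1 with GA101, 0.36 in GRANTA-519 and -0.43 in REC-1 with rituximab, and 0.41 in JEKO-1 and -0.39 in REC-1 with the combination.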

How the results depend on the processing

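No result changed sign as a call. The counts of calls among 20 pairs moved most when a gene's probe sets were averaged, which brings in dimmer probe sets with a larger spread: GA101 against isotype control 0 (3 in the main analysis), rituximab 0 (4), the combination 0 (2), GA101 against rituximab 0 (2), the combination against each antibody 0 (2), and responses that differ between lines 0 (3). With PBS as the control GA101 gave 1. With quantile normalization GA101 gave 1 and rituximab 2. Without the intensity trend rituximab gave 2, and with each line fitted alone (added after the data were seen) 1. With 16 added before log2, 5 responses differed between lines. Leaving out single arrays, the range was 1 to 4 for GA101 and 2 to 4 for rituximab against isotype control, 2 to 3 for the combination, for GA101 against rituximab and for the combination against each antibody, 3 to 4 for responses between lines, 0 for isotype control against PBS and 7 for levels between lines. The count for GA101 fell to 1 without Z138 isotype replicate 3, and that for rituximab to 2 without JEKO-1 rituximab replicate 2, isotype replicate 1 or isotype replicate 3. The labels do not say that shared replicate numbers pair the arrays, so the numbers were not used as pairs in the main analysis. The data do show a shared part: 60 of 75 arrays correlated best with their own number. Same-numbered arrays of a line had a mean correlation of deviations of 0.06 (lowest -0.07) against -0.03 for different numbers. By line it was 0.08 in HBL-2, JEKO-1 and Z138, 0.07 in GRANTA-519 and 0 in REC-1. With the replicate block within line the counts were 3, 4, 3, 2, 0, 2, 3 and 7 for GA101, rituximab and the combination against isotype control, GA101 against rituximab, isotype control against PBS, the combination against each antibody, responses between lines and levels between lines, within 1.5 times the main counts. Low intensity limits SGPP2 outside GRANTA-519 and REC-1, and SPHK1 outside HBL-2.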
